A study of Homo sapiens with 6 samples.

Results

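The 9 genes described here encode cell-surface proteins grouped as therapy targets of small cell lung cancer: DLL3, SEZ6, CD276, NCAM1, CEACAM5, SSTR2, CD47, EPCAM and CADM1. They were chosen by name and found by their symbols among 60671 gene rows. All 9 passed the expression filter that left 20734 genes to test. All libraries came from NCI-H69, an established human line of neuroendocrine small cell lung cancer, labelled wild type and grown in medium with serum. One group of 3 libraries came from cells given the vehicle DMSO and the other group of 3 from cells given GNF5, an allosteric inhibitor of the ABL kinases, each for 48 h. The GNF5 dose is 20 µM in the label of each sample, while the treatment text writes the same figure in millimolar. The labels do not say that the replicates were separate cultures, so the p-values measure the spread between these libraries, which may be technical.

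Antibody-drug conjugates, T-cell engagers and radioligands need a protein that sits on the tumour cell and is scarce elsewhere. Small cell lung cancer cells of the neuroendocrine type carry several proteins at which such drugs have been aimed. Among them are the inhibitory NOTCH ligand DLL3, the neuronal protein SEZ6 and the adhesion molecule NCAM1, known to pathologists as CD56. How much RNA a cell makes for such a protein is one determinant of how much reaches the surface, although the protein itself was not measured here. In a bulk library, fewer cells that make an RNA and less of it per cell cannot be told apart.

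The libraries held between 46148701 and 60697602 counts. At that depth 3 counts of a gene correspond to a level of 0.0494 to 0.065 in CPM (counts scaled to library size), and the 9 genes lay well above it, with at least 343 counts in every library. The neuroendocrine label was checked against marker genes. INSM1, at 1403 ± 34.1 and 1464 ± 45.8 CPM, and CHGA, at 246.8 ± 3.77 and 254.1 ± 17.2 CPM (SD, n = 3), were abundant in both groups, and neither passed the test (edgeR adjusted p = 0.116 and 0.353). INSM1 was called higher with limma-voom (adjusted p = 0.0472) and without GNF5 replicate 2 (0.049), and CHGA without GNF5 replicate 1 (0.00946). Over all tested genes 31% were called higher and 30.7% lower by edgeR's quasi-likelihood test at an adjusted p under 0.05. Of 19 neuroendocrine markers, 4 rose and 10 fell: SCG2, a granin, rose from 207.8 ± 1.64 to 431.5 ± 13.3 CPM, while DDC, the aromatic amino acid decarboxylase, fell by 1.26 on the log2 scale (SE 0.037), GRP, gastrin-releasing peptide, by 1.24 (SE 0.056) and ENO2, neuron-specific enolase, by 0.63 (SE 0.033). Their summed level ranged from 4360 to 4475 CPM with DMSO and from 4486 to 4638 with GNF5. Of 16 markers of non-neuroendocrine and mesenchymal states, 9 were tested, 5 rose and 1 fell, with a summed level from 210.6 to 215.7 CPM with DMSO and from 259.4 to 266.8 with GNF5. Most of it came from CDH2, at 61.1 and 58.5 CPM and not called, and from CD44, SNAI2 and TWIST1. CD44 rose from 53.15 to 74.47 CPM, SNAI2 from 45.4 to 57.3 and TWIST1 from 30.2 to 43.9, while HES1 fell from 13.1 to 10.2. ANXA1, an annexin, rose from 2.71 ± 0.202 to 8.99 ± 0.182 CPM, while YAP1 was at 0 counts. Of 10 leukocyte markers, 4 were tested, 1 rose and 1 fell. PTPRC fell from 1.63 ± 0.124 to 0.35 ± 0.2 CPM, and CSF1R, with 80 counts in all, rose from 0.126 ± 0.0343 to 0.379 ± 0.145. Their summed level ranged from 4.78 to 5.26 CPM with DMSO and from 3.63 to 4.64 with GNF5. Most of it was CD14, at 3.08 and 3.31 CPM and not called, while CD3E, CD3D, FCGR3A and NKG7 were at 0 counts. Of 10 lung epithelium markers, 6 were tested, 0 rose and 5 fell, among them FOXJ1 from 4.81 ± 0.479 to 0.601 ± 0.165 CPM. Their summed level ranged from 13.7 to 15.3 CPM with DMSO and from 6.11 to 7.33 with GNF5, with SFTPB and SCGB3A1 at 0. Of 10 fibroblast markers, 6 were tested, 1 rose and 4 fell. Their summed level ranged from 128.9 to 134.8 CPM with DMSO and from 69.4 to 77.3 with GNF5. Most of it was COL1A2, which fell from 119.2 to 63.5 CPM. COL1A1 rose from 2.89 ± 0.16 to 5.28 ± 0.356 CPM, and COL3A1 was at 0. The mitochondrial share of the counts was 6.94 to 7.50% with DMSO and 7.88 to 8.66% with GNF5, without overlap. The part of these shifts in the results below was not tested.

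With GNF5 the surface targets moved in both directions and mostly by little. Of the 9, 5 rose (CEACAM5, NCAM1, CD276, DLL3 and EPCAM) and 4 fell (CADM1, CD47, SEZ6 and SSTR2). Over all tested genes 61.6% were called, 31% higher and 30.7% lower, and among genes at least as abundant as CD276, the least abundant of the 9 in CPM, 76.2% were called. A call in this comparison was therefore common, for abundant genes above all. The 9 had a median log2 fold change of 0.12 and a median absolute log2 fold change of 0.28, beside 0.01 and 0.34 over all tested genes. CEACAM5 alone changed by 2-fold or more, a size at which 4.95% of tested genes were called higher and 6.69% lower. For all 9 genes the CPM ranges of the groups did not overlap, as was the case for 65.9% of tested genes.

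**Figure D1:**
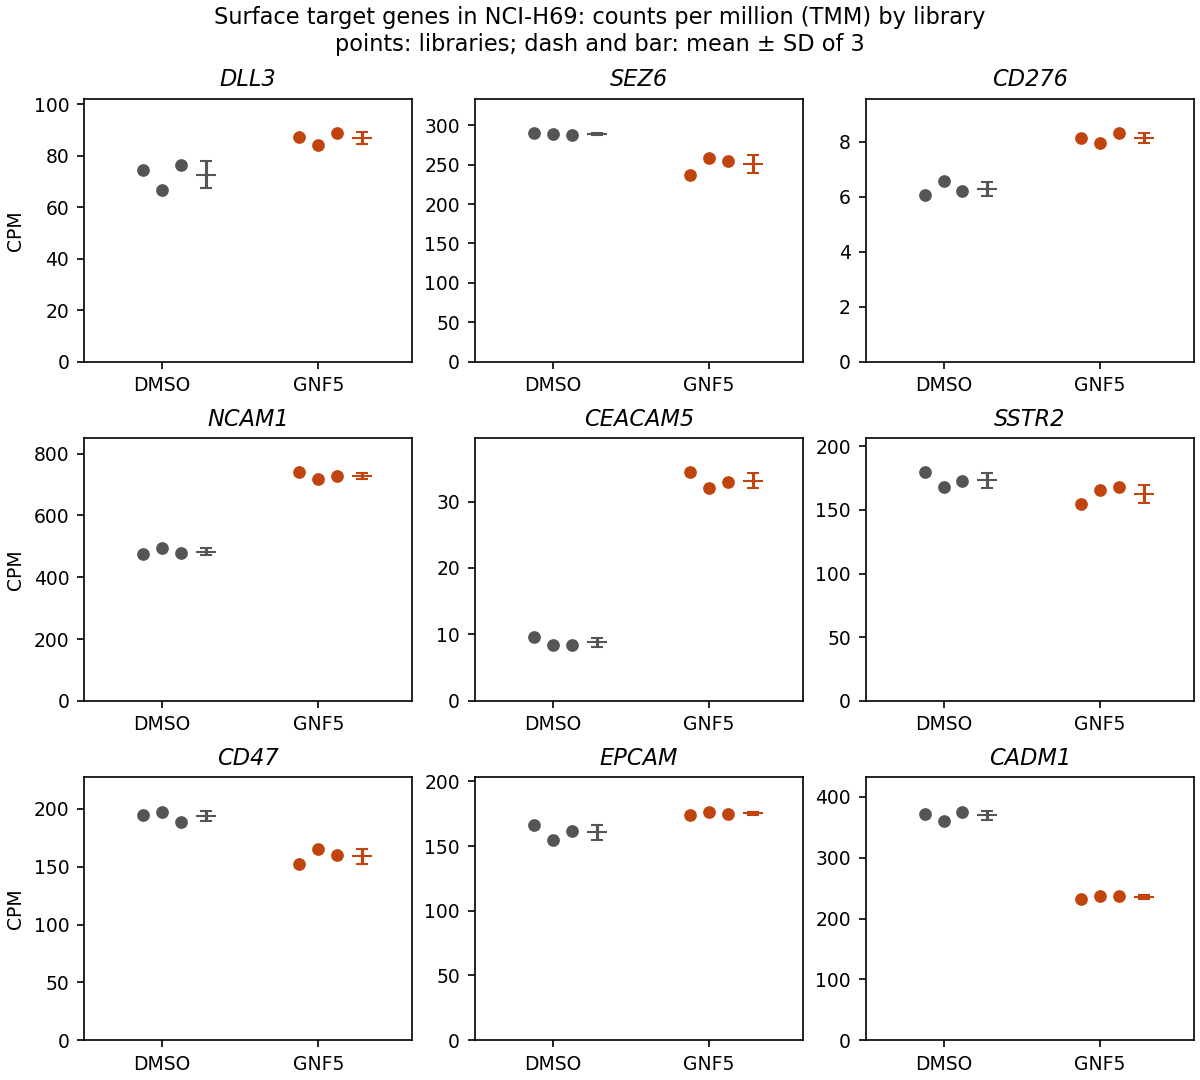
Level in CPM (vertical axes from 0) of the 9 surface target genes in each of the 3 DMSO and 3 GNF5 libraries, with the mean and SD of each group beside the points. CEACAM5 lies between 8.45 and 9.63 CPM with DMSO and between 32.1 and 34.4 with GNF5, while the groups of SSTR2 nearly touch.

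The levels were compared between genes per length, as TPM, computed from the counts and the exon length in the files. For TPM, counts are divided by exon length and then scaled to the same sum in every library. With DMSO, EPCAM stood first at 218.7 ± 8.09 TPM, followed by SEZ6 at 192.6 ± 1.73, NCAM1 at 125.4 ± 3.10, CADM1 at 110.9 ± 2.05 and DLL3 at 91.5 ± 6.39. CD47 at 77.9 ± 2.08 and SSTR2 at 73.0 ± 2.59 TPM came next, and the values of this pair overlapped, so their order is not resolved. A gap of 9.94-fold separated SSTR2 from CEACAM5, at 7.34 ± 0.587 TPM, and CD276 was last at 3.79 ± 0.153. The first 7 were thus more abundant per length than 89.3% or more of all tested genes, while CEACAM5 exceeded 46.8% of them and CD276 36.4%. The length takes in every annotated exon of a gene, 2430 bases for EPCAM and 12737 for NCAM1. In CPM, without length, NCAM1 was at 483 and EPCAM at 160.8 with DMSO. The order of the genes in either group therefore depends on these lengths, and which transcripts the cells made was not tested.

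With GNF5 the order changed in the middle. EPCAM stayed first at 238.8 ± 1.87 TPM and CD276 last at 4.92 ± 0.12. NCAM1 moved above SEZ6, at 189.5 ± 4.61 against 167.2 ± 5.96 TPM, and the values of the 2 genes did not overlap in either group. DLL3, at 109.7 ± 3.33 TPM, moved above CADM1, at 70.8 ± 0.26. CADM1 then lay just above SSTR2, at 68.6 ± 2.25 TPM, and SSTR2 overlapped with CD47, at 64.1 ± 2.03. CEACAM5 kept its place in the order at 27.6 ± 1.25 TPM but now exceeded 72.2% of tested genes. The 9 genes together made up 886.8 to 917.5 TPM with DMSO and 939.9 to 942.9 with GNF5.

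**Figure D2:**
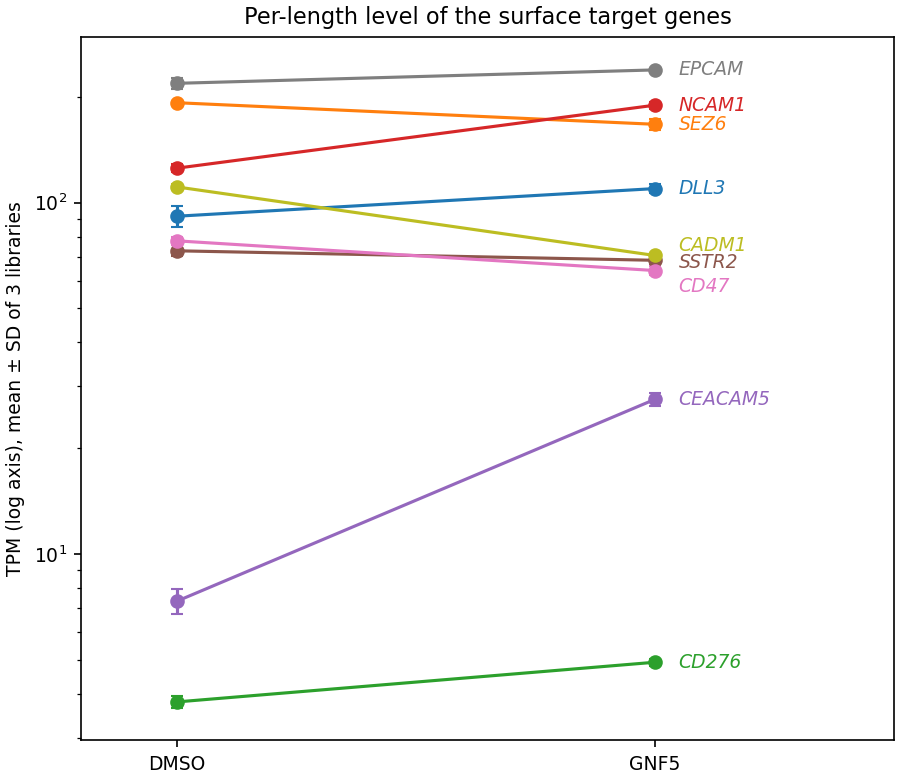
Mean level per length (TPM, log axis) of the 9 genes with DMSO and with GNF5, with bars for the SD of 3 libraries and a line joining the groups of each gene. Lines cross between NCAM1 and SEZ6 and between DLL3 and CADM1, and CEACAM5 climbs from 7.34 to 27.6 TPM.

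The first group of targets comprises proteins of the neuroendocrine lineage. DLL3 (ENSG00000090932, GRCh38 chromosome 19, 39498895 to 39508481, forward strand) encodes a delta-like protein that holds NOTCH signalling down from inside the cell and reaches the surface of these tumours, where tarlatamab, a T-cell engager, binds it. It had 74.4, 66.6 and 76.5 CPM in the DMSO libraries and 87.2, 84.2 and 88.7 in the GNF5 libraries. The second DMSO library was the lowest, and every GNF5 library lay above all DMSO libraries. The log2 fold change was 0.26 ± 0.044 (SE, 95% interval 0.17 to 0.35, edgeR adjusted p = 1.04e-05), which is 1.20-fold.

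SEZ6 (ENSG00000063015, chromosome 17, 28954901 to 29006440, reverse strand) encodes a transmembrane protein of neurons that has been a target of antibody-drug conjugates in this cancer. It had 290.2, 289.2 and 287.7 CPM with DMSO and 237.5, 258.9 and 255.2 with GNF5. The first GNF5 library was the lowest and the DMSO values lay close together. The groups did not overlap. SEZ6 fell by 0.21 on the log2 scale (SE 0.034, 95% interval -0.28 to -0.14, edgeR adjusted p = 6.73e-06).

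SSTR2 (ENSG00000180616, chromosome 17, 73165010 to 73176633, forward strand) encodes the somatostatin receptor bound by radiolabelled somatostatin analogues. It had 179.5, 167.9 and 172.6 CPM with DMSO and 154.6, 165.4 and 167.8 with GNF5. The groups nearly touched, at the second DMSO and the third GNF5 library. The log2 fold change was -0.09 ± 0.037 (95% interval -0.17 to -0.02, edgeR adjusted p = 0.0308). The call was lost without DMSO replicate 1 (log2 fold change -0.07, adjusted p = 0.129), DMSO replicate 3 (-0.10, adjusted p = 0.0594) or GNF5 replicate 1 (-0.06, adjusted p = 0.189). Its adjusted p ran from 0.00769 to 0.189 over the alternatives other than the 1.5-fold test. Of the receptor's 2 ligand genes, SST had 0 counts in the 6 libraries, and a count of 0 at this depth leaves room for at most 0.00903 CPM. CORT had 43 counts in all. It shares 68.05% of its exon bases with the gene model CENPS-CORT on the same strand, so its level may be understated.

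The second group comprises adhesion molecules, and it held the largest changes in both directions. CEACAM5 (ENSG00000105388, chromosome 19, 41708585 to 41730433, forward strand) encodes carcinoembryonic antigen, a GPI-anchored adhesion protein of gut epithelium and of many carcinomas. It had 9.63, 8.45 and 8.47 CPM with DMSO, from 544, 511 and 488 counts, and 34.4, 32.1 and 33.0 CPM with GNF5, from 2019, 1487 and 1728 counts. The 3 GNF5 libraries lay close together and far above the DMSO libraries. The log2 fold change was 1.91 ± 0.063 (95% interval 1.78 to 2.04, edgeR adjusted p = 2.50e-20), which is 3.75-fold, and 97.2% of tested genes had a smaller absolute log2 fold change. It also passed a test against a 1.5-fold change (glmTreat adjusted p = 2.27e-17), as 5.98% of tested genes did in that direction. CEACAM genes resemble each other, and fragments placed equally well in several of them are not counted, so the level of CEACAM5 may be understated.

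Promoter windows, 250 bases before to 50 bases after a RefSeq start on GRCh38.p14, were at hand for 4 of the 9 genes: CEACAM5, SSTR2, CD47 and CD276. The upstream bases are shown for CEACAM5 and SSTR2, the genes with the largest and the smallest change, to set the sequences before their starts side by side. The first is chr19:41708376-41708604 and the second chr17:73164760-73165009, both on the forward strand. The CEACAM5 stretch ends 21 bases before the RefSeq start, and its last 20 bases lie inside the gene model of the count files. Capitals mark CACGTG, the core of the E-box that USF and MYC-MAX factors read, in CEACAM5, and TGACGT, the core of a cAMP response element, in SSTR2.
CEACAM5: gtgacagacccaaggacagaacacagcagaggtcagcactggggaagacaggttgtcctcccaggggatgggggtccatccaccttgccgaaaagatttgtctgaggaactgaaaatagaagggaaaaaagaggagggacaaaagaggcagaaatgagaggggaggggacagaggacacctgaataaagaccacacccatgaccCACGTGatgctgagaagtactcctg
SSTR2: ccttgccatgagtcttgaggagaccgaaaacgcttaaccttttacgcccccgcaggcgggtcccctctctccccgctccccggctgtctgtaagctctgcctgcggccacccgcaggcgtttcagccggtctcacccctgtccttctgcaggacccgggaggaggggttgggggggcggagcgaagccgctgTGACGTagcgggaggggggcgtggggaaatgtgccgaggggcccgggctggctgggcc

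The whole windows were searched on both strands for 4 motifs, the E-box core CACGTG, the response element core TGACGT, the GC box GGGCGG and CAGCTG, another E-box form. CACGTG was found once in CEACAM5, its first base 46 bases before the RefSeq start, and in none of the other 3 genes. The last base of this match is the first base of the gene model of the count files. CACGTG is present in 7.26% of the 35116 windows of this kind. TGACGT was found once in SSTR2, 58 bases before the start, and is present in 7.98% of all windows. GGGCGG was found in SSTR2, CD47 and CD276 but not in CEACAM5, and is present in 45% of all windows. CAGCTG was found in none of the 4 genes, with 17.9% of all windows holding it. The CEACAM5 window had a GC content of 53.3%, against 70% for SSTR2, 79% for CD47 and 80.3% and 76% for the 2 starts of CD276.

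NCAM1 (ENSG00000149294, chromosome 11, 112961247 to 113278436, forward strand) encodes the neural cell adhesion molecule CD56, at which lorvotuzumab mertansine was aimed. It had 476.0, 495.8 and 477.2 CPM with DMSO and 739.2, 718.3 and 727.6 with GNF5. The libraries of each group lay close together, and the groups were far apart. NCAM1 rose by 0.59 ± 0.032 on the log2 scale (95% interval 0.53 to 0.66, edgeR adjusted p = 1.45e-15), which is 1.51-fold, and it did not pass the test against 1.5-fold (glmTreat adjusted p = 0.745). Gene models that overlap its exons lie on the opposite strand, and the counts were made by strand.

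CADM1 (ENSG00000182985, chromosome 11, 115169218 to 115504957, reverse strand) lies on the same chromosome and encodes another adhesion protein of the immunoglobulin superfamily. It had 372.4, 361.2 and 375.7 CPM with DMSO and 232.0, 237.7 and 236.4 with GNF5, again with a wide gap between the groups. CADM1 fell by 0.65 on the log2 scale (SE 0.032, 95% interval -0.72 to -0.59, edgeR adjusted p = 1.79e-16), to 0.636 of its DMSO level, and it passed the test against 1.5-fold (glmTreat adjusted p = 0.0426), as 7.52% of tested genes did in that direction. The ratio of NCAM1 to CADM1 in TPM was 1.11, 1.19 and 1.10 in the DMSO libraries and 2.76, 2.61 and 2.66 in the GNF5 libraries.

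EPCAM (ENSG00000119888, chromosome 2, 47345158 to 47387601, forward strand) encodes the epithelial adhesion molecule that catumaxomab binds. It had 166.3, 154.7 and 161.3 CPM with DMSO and 174.2, 176.5 and 174.8 with GNF5. The log2 fold change was 0.12 ± 0.034 (95% interval 0.05 to 0.19, edgeR adjusted p = 0.00267), so the most abundant of the targets per length was also among the least changed.

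The third group acts on immune cells. CD47 (ENSG00000196776, chromosome 3, 108043091 to 108091862, reverse strand) encodes the signal that restrains phagocytosis by binding SIRP-alpha on macrophages. It had 194.9, 197.6 and 189.0 CPM with DMSO and 152.3, 165.2 and 160.3 with GNF5, with the first GNF5 library lowest. CD47 fell by 0.28 on the log2 scale (SE 0.035, 95% interval -0.36 to -0.21, edgeR adjusted p = 6.20e-08), to 0.821 of its DMSO level.

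CD276 (ENSG00000103855, chromosome 15, 73683966 to 73714514, forward strand) encodes the checkpoint protein B7-H3, which ifinatamab deruxtecan targets. It had 6.07, 6.56 and 6.23 CPM with DMSO and 8.14, 7.96 and 8.32 with GNF5, from 343 to 478 counts a library. The log2 fold change was 0.37 ± 0.088 (95% interval 0.19 to 0.55, edgeR adjusted p = 0.000552), the widest interval of the 9.

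**Figure D3:**
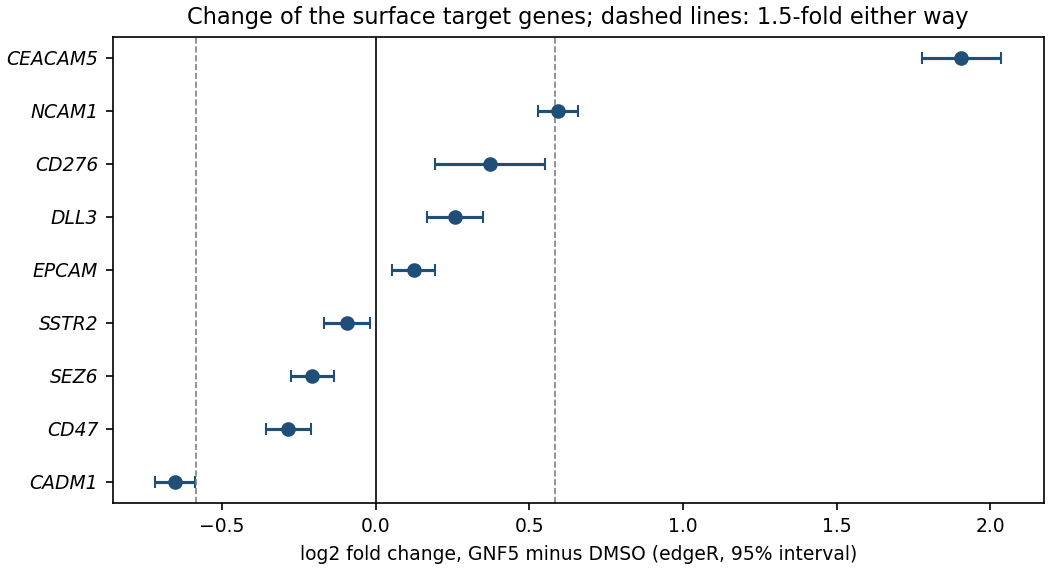
Log2 fold change (GNF5 minus DMSO, horizontal axis) of the 9 genes with 95% intervals from edgeR, ordered by size, and dashed lines at 1.5-fold in each direction. CEACAM5 at 1.91 stands apart, the interval of NCAM1 crosses the upper line, that of CADM1 lies at the lower line, and the other 6 lie between the lines.

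Relatives of these genes by sequence family went higher more often than lower. Of 35 relatives listed, 25 were tested, 13 rose and 1, CHL1, fell, with a median log2 fold change of 0.21. Over all tested genes 31% were higher and 30.7% lower. The list was chosen with earlier results of these data known, so the counts are given as a description. Among NOTCH ligands, JAG1 rose by 1.00 ± 0.051 on the log2 scale, from 27.8, 28.57 and 28.96 CPM to 61.66, 54.95 and 53.56 CPM, and DLL1 rose by 0.35 ± 0.049 on the log2 scale. JAG2, the most abundant of them in CPM, was at 0.03 ± 0.035 (edgeR adjusted p = 0.498) and DLL4 at 0.05 ± 0.062 (edgeR adjusted p = 0.508). SEZ6L2 rose from 80.7, 78.0 and 81.4 CPM to 120.5, 121.7 and 126.6 CPM (log2 fold change 0.62 ± 0.037, edgeR adjusted p = 1.35e-14), whereas SEZ6 itself fell and SEZ6L was at -0.06 ± 0.047 (edgeR adjusted p = 0.308). In TPM, SEZ6L2 went from 64.4 to 99.1, below SEZ6 in both groups.

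The other neural adhesion genes beside NCAM1 mostly rose as well. L1CAM rose from 98.5 ± 1.85 to 137.9 ± 2.43 CPM (log2 fold change 0.48 ± 0.035), NCAM2 by 0.30 ± 0.037 and NRCAM by 0.12 ± 0.032. CHL1, a low-level relative of L1CAM, fell by 0.90 on the log2 scale (SE 0.122). Next to CADM1, CADM2 rose by 0.26 ± 0.091 (edgeR adjusted p = 0.0167) and CADM4 was at 0.10 ± 0.049 (edgeR adjusted p = 0.0749). The call of CADM2 was lost without DMSO replicate 2 (adjusted p = 0.0751), DMSO replicate 3 (0.0527) or GNF5 replicate 1 (0.16), the last at a log2 fold change of 0.16, and with DESeq2 (0.0533).

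The other CEACAM genes on chromosome 19 were rarer than CEACAM5. CEACAM7 (41673303 to 41706976, reverse strand), which lies just before CEACAM5 on the chromosome, rose from 1.26 ± 0.105 to 2.69 ± 0.207 CPM (log2 fold change 1.09 ± 0.16). CEACAM6 (41750977 to 41772211), on the other side, had 0.958 ± 0.154 and 0.644 ± 0.167 CPM (log2 fold change -0.56 ± 0.253, edgeR adjusted p = 0.0571); it was called lower with upper-quartile factors (adjusted p = 0.0469) and without DMSO replicate 2 (0.0446) or GNF5 replicate 3 (0.0439). CEACAM19, further along the chromosome, rose from 3.03 ± 0.506 to 6.11 ± 0.288 CPM. All 3 were below CEACAM5 in TPM in both groups.

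Of the somatostatin receptors, SSTR1 had 40.1 ± 1.35 and 37.2 ± 2.31 CPM (edgeR adjusted p = 0.0626) and SSTR5 rose from 1.11 ± 0.153 to 2.04 ± 0.167 CPM. NCR3LG1, the B7 family ligand of the NK cell receptor NKp30, rose from 82.7 ± 4.86 to 107.7 ± 1.63 CPM, a level above that of CD276 in CPM and, at 43.0 and 56.1 TPM, also per length. The checkpoint ligand CD274, or PD-L1, had 21 counts over the 6 libraries and was not tested.

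**Figure D4:**
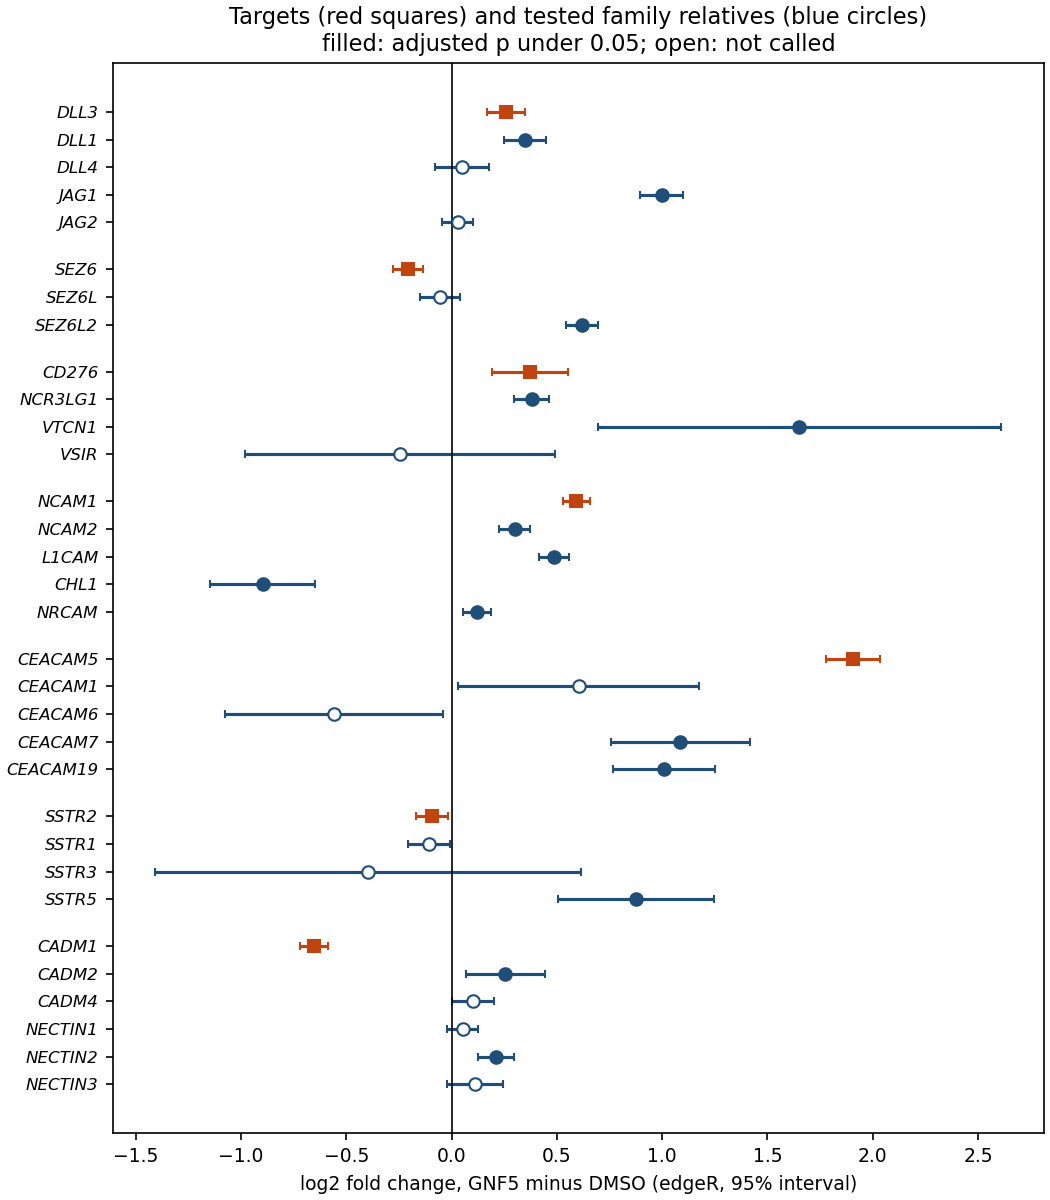
Log2 fold changes (GNF5 minus DMSO, horizontal axis) with 95% intervals for 7 of the targets (red squares) and their tested family relatives (blue circles), grouped by family, with open symbols where the adjusted p was 0.05 or more. SEZ6 and CADM1 lie to the left of 0 while SEZ6L2 and CADM2 lie to the right, and CEACAM5 is to the right of every other CEACAM gene.

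Partners of the targets and enzymes that modify them were higher in 19 and lower in 10 of 35 tested genes (38 listed, median log2 fold change 0.14), beside 31% higher and 30.7% lower of all tested genes. RFNG, a fringe glycosyltransferase that modifies NOTCH receptors, rose from 21.1 ± 1.27 to 44.4 ± 1.01 CPM. The other fringe genes fell, LFNG from 21.3 ± 0.252 to 17.6 ± 0.993 CPM (edgeR adjusted p = 0.000179) and MFNG from 2.05 ± 0.46 to 1.45 ± 0.153 (edgeR adjusted p = 0.0186). NOTCH2, the most abundant receptor of this list, rose by 0.15 ± 0.036 and NOTCH1 fell by 0.49 on the log2 scale (SE 0.107). CLDN7, a claudin that binds EPCAM, rose from 67.8, 60.5 and 66.6 CPM to 98.35, 103.7 and 100.8 CPM. BACE1, the beta-secretase, which cleaves SEZ6, fell by 0.23 on the log2 scale (SE 0.037).

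THBS1, or thrombospondin, a secreted ligand of CD47, rose from 8.88 ± 0.40 to 18.0 ± 0.445 CPM, which is 2.03-fold. CD24, which like CD47 encodes a signal that restrains phagocytosis, rose by 0.14 ± 0.031 on the log2 scale, with a level that is uncertain because the genome holds near-identical copies of the gene. QPCTL, the glutaminyl cyclase that finishes the site on CD47 to which SIRP-alpha binds, rose by 0.28 ± 0.048 on the log2 scale. CALR, the chaperone that promotes phagocytosis when exposed on the surface, rose by 0.44 ± 0.032, as did its fellow chaperone PDIA3, by 0.46 ± 0.031. SIRPA itself was called higher by 0.13 ± 0.052 on the log2 scale (edgeR adjusted p = 0.0375), a call that did not hold under upper-quartile factors (adjusted p = 0.1001), DESeq2 (0.101) or no expression filter (0.0712), or without DMSO replicate 1 (0.103), DMSO replicate 2 (0.0569), DMSO replicate 3 (0.126), GNF5 replicate 2 (0.0997) or GNF5 replicate 3 (0.104). Of the arrestins that bind activated receptors such as SSTR2, ARRB2 rose by 0.28 ± 0.041 and the rarer ARRB1 fell by 1.45 on the log2 scale (SE 0.142). The sheddases ADAM17 and ADAM10 had log2 fold changes of 0.35 ± 0.052 and -0.14 ± 0.035.

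Of other surface proteins at which antibody drugs are aimed, 38 were listed and 29 tested, with 10 higher and 7 lower (median log2 fold change 0.04), shares near the 31% and 30.7% of all tested genes. CXCR4, the chemokine receptor of metastasising cells, had the lowest p of this list and fell from 162.6, 172.3 and 172.5 CPM to 44.0, 47.2 and 47.4 CPM, which is -1.87 ± 0.04 on the log2 scale (edgeR adjusted p = 1.31e-24). In TPM it went from 253.2, above EPCAM, to 69.3, close to SSTR2. CCKBR, a gastrin receptor, fell from 3.30 ± 0.153 to 0.752 ± 0.223 CPM, and DLK1, a delta-like protein, rose from 7.64 ± 0.593 to 14.2 ± 1.47. Among the other abundant genes of this list, SLC39A6, the zinc transporter LIV-1, had a log2 fold change of 0.32 ± 0.036 and L1CAM of 0.48 ± 0.035. TFRC was at 0.15 ± 0.031, CD24 at 0.14 ± 0.031 and KIT at 0.14 ± 0.037. PTK7, at -0.23 ± 0.035, and TPBG, at -0.25 ± 0.043, fell. CELSR3, at 0.04 ± 0.033 (edgeR adjusted p = 0.291), and LY6E, at -0.07 ± 0.04 (edgeR adjusted p = 0.127), were not called.

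Glycolipid antigens, which have also been aimed at in this cancer, depend on enzymes rather than on 1 gene. Of 10 genes of ganglioside synthesis and fucosylation, 2 rose and 6 fell (median log2 fold change -0.20), beside 31% and 30.7% of all tested genes. FUT1, a fucosyltransferase of the kind that makes fucosyl-GM1, rose from 33.4, 35.4 and 34.9 CPM to 108.8, 108.3 and 113.2 CPM (log2 fold change 1.67 ± 0.041, edgeR adjusted p = 3.28e-23), which is 3.19-fold. FUT2, the other fucosyltransferase of this list, fell from 3.04 ± 0.173 to 2.40 ± 0.215 CPM (edgeR adjusted p = 0.0311). UGCG, which makes the first glucosylceramide, rose by 0.26 ± 0.043. The galactosyltransferase B3GALT4 fell by 0.46 on the log2 scale (SE 0.111, edgeR adjusted p = 0.000815). The GM2/GD2 synthase B4GALNT1 fell by 0.22 on the log2 scale (SE 0.043), the GD3 synthase ST8SIA1 by 0.45 (SE 0.101) and the sialyltransferase ST8SIA5 by 0.18 (SE 0.035).

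For each target, the gene with a mean log2 CPM of at least 5 whose log2 CPM followed it most closely over the 6 libraries was found by Pearson correlation. These were NDUFAF4 for DLL3 (r = 0.993), GABBR2 for SEZ6 (0.999), SEMA6D for CD276 (0.999), BVES for NCAM1 (1.00), MAN2A2 for CEACAM5 (1.00), NAXE for SSTR2 (0.989), PPP1R10 for CD47 (0.999), WDR46 for EPCAM (0.999) and PPIA for CADM1 (1.00). The points are 6 libraries in 2 treatment groups, so any gene with a clear difference between the groups scores high, and r is given as a description. For NCAM1, 1767 of 6743 genes reached r of 0.95 or more, and for CADM1 1853 did, against 28 for SSTR2.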

How the data were processed

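The deposited values are raw counts of fragments per gene, which the authors made with featureCounts 1.6.1, per the file headers: read pairs, reverse strand, exons summed by gene, Ensembl release 101 on GRCh38. By default such counting leaves out fragments placed in several loci or genes. GRCh37, HTSeq, STAR, Trim Galore and DESeq2 are listed without roles in the submitters' processing notes. Coordinates follow the count files.

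Symbols matched 60401 of 60671 IDs. GNF5 and DMSO libraries (groups and replicate numbers from the labels) were compared with edgeR 4.0.16 in R 4.3.3: default expression filter (39937 genes removed), TMM, robust quasi-likelihood fit, Benjamini-Hochberg over all 20734 genes. SE is the log2 fold change over the square root of F. CPM used TMM-scaled library sizes; TPM was computed from counts and the files' exon lengths. The script was tested on simulated data. Alternatives used limma 3.58.1 and DESeq2 1.42.0. No 2 replicates were alike within counting noise (chi-square 3.18 to 8.93 times its degrees of freedom).

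The members and gene lists were chosen with earlier results of these data known, and the motifs with the sequences in view. Named were the 9 genes, up to 4 called genes of each of the lists of relatives, partners, other targets and gangliosides with the lowest p and a mean log2 CPM of at least 1, and the best correlated gene (mean log2 CPM of at least 5); 1 gene the rule names is not reported here. All further genes of these lists, and the markers, were named after their values were seen.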

Additional observations from a re-analysis of the deposited data

How the results depend on the processing

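Over 14 alternatives per gene (other scalings, filters and tools, a replicate block, a test against a 1.5-fold change and each library left out), the 9 targets kept their direction in all 126 values and their call in 115. Under the test against 1.5-fold, the calls of DLL3 (log2 fold change 0.26), SEZ6 (-0.21), CD276 (0.37), NCAM1 (0.59), SSTR2 (-0.0925), CD47 (-0.28) and EPCAM (0.12) were lost, since that test asks for a larger change. It left 1 target higher and 1 lower, 4 relatives, 3 partners and 2 other targets higher, 1 relative, 3 partners and 3 other targets lower, and 1 ganglioside gene higher and 0 lower, out of 1240 genes higher and 1560 lower in all. The count of relatives that fell, 1, was 2 with the stricter filter of 1 CPM in 3 libraries and under the replicate block, 3 with upper-quartile factors, and 1 to 3 without single libraries. SSTR2 was not called under the replicate block (-0.0928, edgeR adjusted p = 0.0531), and without single libraries its log2 fold change ran from -0.123 to -0.0553 and 3 or 4 targets were called lower. Same-numbered libraries of the groups did not deviate together (r of -0.02, 0.02 and 0.00082), nor did every library correlate best with its own number, so the numbers were not taken as pairs. The block left 6279 genes higher and 6196 lower, beside 6426 and 6356 without it. It also ended the call of SIRPA and called CEACAM6 (adjusted p = 0.0486). With DESeq2, DESeq2 size factors, limma-voom, upper-quartile factors and both other filters, no call of a target changed. Depth limits the genes of low count, such as CD274, for which no fold is given.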
